A study of Homo sapiens with 9 samples.

Results

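Perivascular progenitor cells grown from the human embryonic stem cell line H9 were compared with the BMP4-treated embryoid bodies from which they had been derived. The comparison takes 3 progenitor arrays and 3 embryoid body arrays, 6 of the 9 arrays in the series. It covers the 11991 genes that have a named probe detected at p under 0.05 on at least 3 of the 9 arrays. Since named probes were those detected on at least 4 arrays, this limit left none of them out. H9 is an established line of undifferentiated human cells, kept here on mouse feeders in medium holding 4 ng/ml bFGF. The embryoid bodies were floating aggregates of H9 cells held in serum replacement medium with BMP4 at 40 nM for 6 days. For the progenitors, such aggregates were dissociated on day 6 and plated on collagen in EGM2-MV, a growth medium made for microvascular endothelial cells, and the cells that stuck were passaged. The passage at harvest and the number of separate cultures behind the arrays are stated in no source used here, so that p-values measure the spread between arrays, which may be technical. Loss of the BMP4 medium, selection by adhesion, the collagen surface, the new medium, flat growth and time all differ between the groups and cannot be told apart. The 3 remaining arrays hold the undifferentiated H9 cells (hESC), which entered the fit for its estimate of spread and are given beside the others as a reference level.

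Pericytes are the cells that wrap capillaries. They share the basement membrane of the endothelium, are recruited to it through the PDGF receptor beta, and contract through smooth muscle actin and myosin. They lie close to fibroblasts and mesenchymal stromal cells in the genes they use, and few genes mark them alone. BMP4 drives early embryonic cells out of the pluripotent state towards mesoderm and extraembryonic tissue.

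All levels are normalized log2 intensities, and differences are log2 fold changes, progenitors minus embryoid bodies, so that 1 unit is a 2-fold change. A level is followed by its SD over 3 arrays. The words rose, fell and changed are kept for genes where limma's moderated test gave an adjusted p under 0.05 (Benjamini-Hochberg over all 11991 genes) and the change was at least 2-fold. Where a gene was detected on no array of the dimmer group, its change is a lower bound, written as at least N-fold, measured against the lowest signal among detected probes on each of those arrays. The arrays each detected 17964 to 21172 probes (38.0% to 44.7%).

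Changes between the aggregates and the progenitors were widespread. By limma's test 4099 of 11991 genes changed, 34.2% of all, with 1838 higher (15.3%) and 2261 lower (18.9%) in progenitors. These shares are the background against which every gene group below is to be read. A further 4178 genes passed the adjusted p with less than a 2-fold change. Changes of 8-fold or more were reached by 254 higher and 399 lower genes, and of 32-fold or more by 40 and 82. The ranges of both groups overlapped for 3 of the changed genes, ADGRV1, PPARGC1A and ZNF765, whose calls were lost under 9 to 11 of 22 alternatives. Over all genes the median difference was −0.08. Of the 2261 lower genes 2107 had no call between embryoid bodies and hESC, 109 were higher in embryoid bodies than in hESC and 45 lower. For the 1838 higher genes these counts were 1738, 26 and 74.

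**Figure D1:**
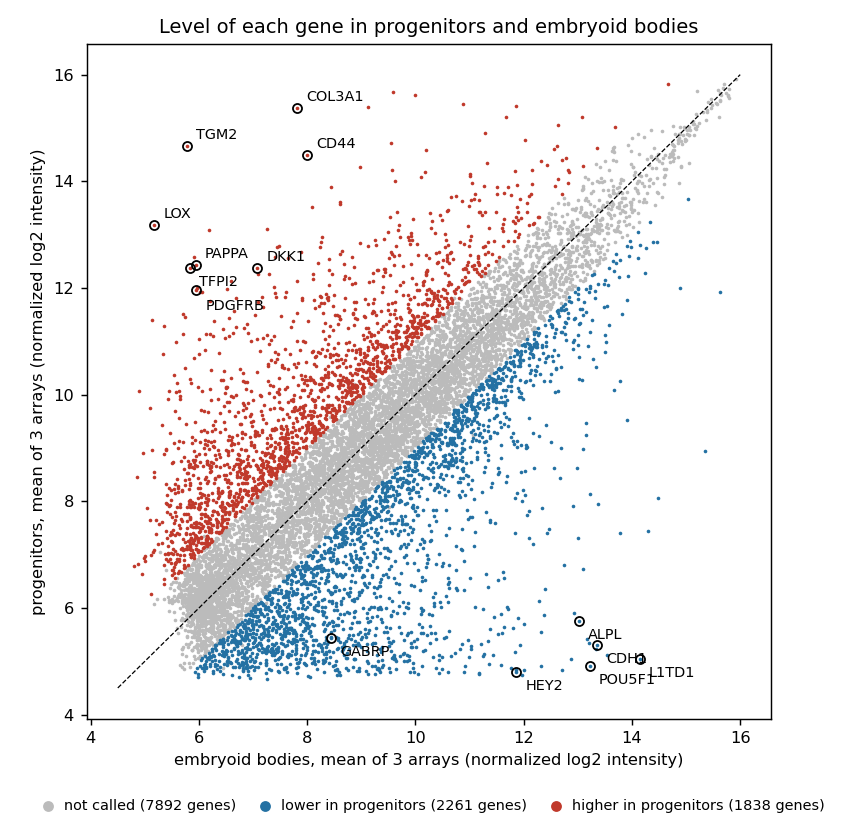
Mean normalized log2 intensity of each of the 11991 genes in embryoid bodies (x axis) and progenitors (y axis), 3 arrays each. Red points are the 1838 higher genes, blue points the 2261 lower genes and grey points the genes not called, with the dashed line marking equal levels and the circled genes named. TGM2, LOX and COL3A1 lie farthest above the line and L1TD1 and POU5F1 farthest below among the circled genes.

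The 6 genes taken as markers of the comparison were a hyaluronan receptor, a collagen-crosslinking enzyme, 2 genes of extracellular proteolysis, a WNT antagonist and a receptor subunit. CD44 (Entrez Gene 960), the cell-surface receptor for hyaluronan, read 8.03, 8.07 and 7.91 in embryoid bodies and 14.55, 14.30 and 14.61 in progenitors. It was therefore already detected in the aggregates and rose 89.6-fold (6.49, SE 0.14, adjusted p = 1.35e-09). The second named probe of CD44 gave 5.73. LOX (Entrez Gene 4015), lysyl oxidase, starts the crosslinking of collagen and elastin. It was undetected on all embryoid body arrays (5.25, 5.06 and 5.21) and read 12.82, 13.74 and 12.98 in progenitors, a rise of at least 146-fold (adjusted p = 3.6e-08). No embryoid body array came near the lowest progenitor array.

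TFPI2 (Entrez Gene 7980), a Kunitz-type inhibitor of plasmin and other serine proteases in the matrix, read 5.50, 6.02 and 5.97 in embryoid bodies, where 1 of 3 arrays detected it. In progenitors it read 12.10, 12.70 and 12.34 (6.55, SE 0.18, adjusted p = 6.83e-09). PAPPA (Entrez Gene 5069), a metalloprotease that frees insulin-like growth factors by cutting their binding proteins, behaved nearly alike in level: 5.67, 6.26 and 5.88 against 12.21, 12.76 and 12.33 (6.49, SE 0.18, adjusted p = 7.18e-09). Both genes thus went from the edge of detection to the upper part of the intensity range. DKK1 (Entrez Gene 22943), a secreted antagonist of WNT co-receptors, rose from 6.97, 7.08 and 7.20 to 12.18, 12.67 and 12.25 (5.29, adjusted p = 0.000381). Its SE of 0.83 was large although both groups were tight, since the fit pools the spread of hESC, where DKK1 read 10.21, 10.07 and 6.48.

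GABRP (Entrez Gene 2568), the pi subunit of the GABA-A receptor and a gene of amnion-like cells, was the marker that went the other way. It read 8.38, 8.59 and 8.34 in embryoid bodies and was detected on no progenitor array (5.52, 5.37 and 5.42), a fall of at least 5.16-fold (adjusted p = 2.46e-08). In hESC it stood at 6.44 ± 0.11, below the embryoid bodies. The markers were chosen with results of these data known, so their direction is a description of these arrays.

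**Figure D2:**
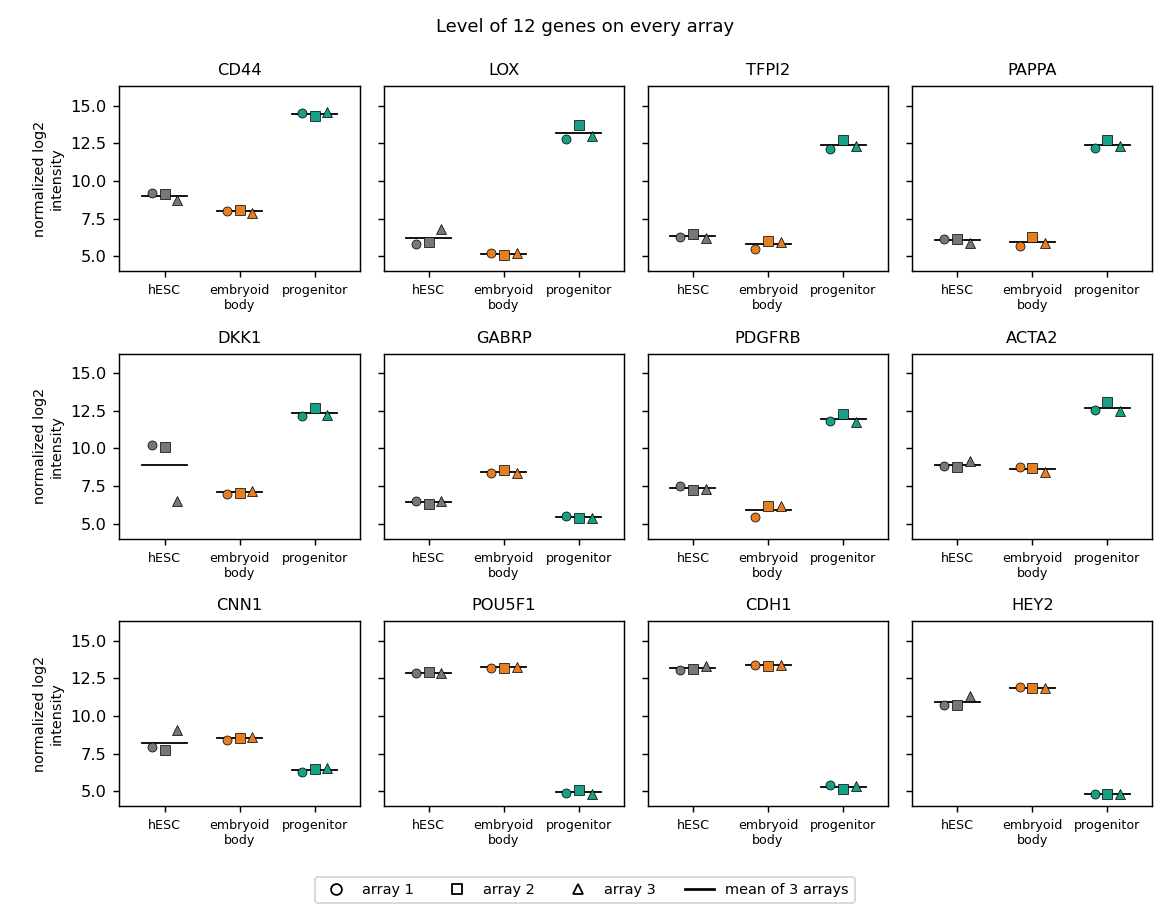
Normalized log2 intensity (y axis) of 12 genes on each array of hESC, embryoid bodies and progenitors, with circles, squares and triangles for arrays 1, 2 and 3 and a bar for the mean of 3 arrays. In all 12 panels the progenitor points lie apart from the embryoid body points, above them for CD44, LOX, TFPI2, PAPPA, DKK1, PDGFRB and ACTA2 and below them for GABRP, CNN1, POU5F1, CDH1 and HEY2.

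The label of the progenitors was set against the defining genes of pericytes and of the cell types the cultures could also hold. Of 24 listed pericyte and mural genes 11 could be tested, and 5 rose and 2 fell (median 0.10, against −0.08 over all genes). PDGFRB, the receptor that brings pericytes to vessels, read 5.47, 6.20 and 6.17 in embryoid bodies and 11.82, 12.26 and 11.78 in progenitors (6.01, SE 0.21, adjusted p = 2.52e-08). The 3 progenitor arrays were all far above the aggregates, in which 2 of 3 arrays detected the gene. ANGPT1, the angiopoietin with which pericytes keep the endothelium quiescent, rose 25.6-fold from 7.16 ± 0.20 to 11.84 ± 0.04. CD248, the stromal and pericyte surface protein endosialin, rose 22.3-fold, and ANPEP, the surface aminopeptidase CD13, rose at least 6.27-fold. TBX18, a transcription factor of mural cells, rose at least 2.20-fold by 1 of 2 probes, the other giving 0.79.

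Several genes used to tell mature capillary pericytes from other stroma did not rise. RGS5, a regulator of G-protein signalling that marks brain pericytes, read 6.79 ± 0.16 in embryoid bodies and 6.25 ± 0.14 in progenitors (−0.54, adjusted p = 0.0282, under 2-fold). NOTCH3, the Notch receptor of mural cells, differed by −0.90 (adjusted p = 0.00105), which is also under 2-fold. KCNJ8, a potassium channel subunit of pericytes, stood at 7.04 ± 0.18 and 6.02 ± 0.19 (−1.02), and this call was lost under 10 of 22 alternatives. ALPL, the tissue-nonspecific alkaline phosphatase, which marks pericytes in vivo and also undifferentiated stem cells, fell 154-fold from 13.03 ± 0.04 to 5.76 ± 0.30. CSPG4 and MCAM, further markers of pericytes, and DES and ABCC9 are not among the genes tested and were not analysed here.

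Among mesenchymal stromal genes 13 of 17 rose and 1 fell (median 1.66). Beside CD44 the largest rises were those of VCAM1, an adhesion receptor for leukocytes (at least 42.2-fold, with 1.65 from its other probe), GREM1, a secreted BMP antagonist (36.2-fold), and TNFRSF11B, the decoy receptor osteoprotegerin (at least 16.9-fold). TWIST1, a helix-loop-helix factor of mesenchyme, rose 3.01-fold from 8.57 ± 0.07 to 10.16 ± 0.15. The exception was THY1, the glycoprotein CD90 by which stromal cells are often sorted. It read 11.57, 11.61 and 11.55 in embryoid bodies and 8.40, 9.62 and 8.41 in progenitors (−2.77, SE 0.28, adjusted p = 2.27e-05). H9 cells carried it at 11.72 ± 0.02, so the aggregates and the stem cells were both above the progenitors. S100A4, a calcium-binding protein of fibroblasts, differed by −0.48 and was not called.

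Of 21 smooth muscle contractile genes 14 rose and 1 fell (median 1.36). ACTA2, smooth muscle alpha-actin, read 8.74, 8.71 and 8.46 in embryoid bodies and 12.52, 13.09 and 12.48 in progenitors (4.06, SE 0.18, adjusted p = 1.1e-07). MYLK, the kinase that phosphorylates myosin light chains to start contraction, rose 26.3-fold from 6.11 ± 0.17 to 10.83 ± 0.09. TGFB1I1, the focal adhesion co-factor Hic-5, rose 18.9-fold, and ACTG2, smooth muscle gamma-actin, 11.3-fold. CNN1, calponin of differentiated smooth muscle, went against the list, with 8.37, 8.55 and 8.61 in embryoid bodies and 6.27, 6.46 and 6.51 in progenitors (−2.10, SE 0.29, adjusted p = 0.000187). SMTN, smoothelin, another gene of contractile smooth muscle, differed by 0.15 and CSRP2, a LIM protein of smooth muscle, by −0.34, and neither was called. MYH11, LMOD1 and MYOCD, which mark the mature contractile cell, were not analysed here.

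The promoters of this group are shown because its members rose together and because the CArG box, the DNA element that serum response factor binds, is the known switch of contractile genes. The 250 bases before each annotated start (RefSeq, GRCh38.p14) were searched on both strands, and 18 of the 21 genes had such a window. The box was found for 8 of the 18 (44.4%), against 1.44% of all 27305 genes with windows and 1.16% of all 35116 windows. The 8 were ACTG2, MYLK, TGFB1I1, LPP and TPM4, which rose, and CNN2, SMTN and SRF, which were not called. The windows of the largest 2 risers with a box follow, with the box in capitals. That of TGFB1I1 is 1 of 3 windows of the gene.
MYLK, chr3:123620549-123620798, - strand: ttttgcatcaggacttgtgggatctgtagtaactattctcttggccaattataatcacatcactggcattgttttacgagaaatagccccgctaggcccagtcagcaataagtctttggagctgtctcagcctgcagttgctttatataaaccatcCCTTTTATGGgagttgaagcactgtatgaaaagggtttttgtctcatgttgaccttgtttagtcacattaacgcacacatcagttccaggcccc
TGFB1I1, chr16:31472955-31473204, + strand: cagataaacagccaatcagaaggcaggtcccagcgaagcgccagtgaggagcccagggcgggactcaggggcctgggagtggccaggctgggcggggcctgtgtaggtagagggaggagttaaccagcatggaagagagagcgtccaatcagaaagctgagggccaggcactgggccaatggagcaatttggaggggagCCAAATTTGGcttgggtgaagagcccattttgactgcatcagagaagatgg
The box of MYLK ends 84 bases before the start and that of TGFB1I1 41 bases before it. A match is a stretch of letters and not a measured binding site, and windows without one may hold the element outside these 250 bases. Contractile genes are known for this box, so its excess describes the choice of genes and not their rises.

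Matrix genes were mostly higher. Among the 33 genes of fibrillar collagen and matrix, 26 rose and none fell (median 3.06). COL3A1, the chain of type III collagen, read 7.75, 7.84 and 7.83 in embryoid bodies and 15.19, 15.74 and 15.19 in progenitors, near the top of the scale at 15.92 (7.57, SE 0.17, adjusted p = 2.05e-09). DCN, the collagen-binding proteoglycan decorin, rose 121-fold from 6.18 ± 0.07 to 13.09 ± 0.56. TGFBI, a TGF-beta induced adhesion protein, rose 68.6-fold and LUM, the proteoglycan lumican, 49.2-fold. BGN, the proteoglycan biglycan (0.73, adjusted p = 0.127), and VCAN, the proteoglycan versican (−0.77, adjusted p = 0.0287), were not called. VCAN read 10.72, 11.84 and 10.69 in progenitors, so that the second array alone matched the 11.85 ± 0.06 of embryoid bodies. Without the second progenitor array VCAN fell (−1.15), which made 1 lower gene in the list.

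The enzymes that modify and crosslink collagen rose with their substrates: 14 of 16 were higher and none lower (median 2.10, or 2.02 taking undetected members at their bounds). TGM2, the transglutaminase that joins glutamine to lysine side chains, had the largest rise of all genes. It was undetected in embryoid bodies (5.90, 5.58 and 5.86) and read 14.39, 15.13 and 14.45 in progenitors, at least 406-fold higher (adjusted p = 2.4e-09). Its second named probe gave 4.08, the same direction at a far smaller size, so the size depends on the probe. P4HA2, a prolyl hydroxylase subunit, rose 14.7-fold and PLOD2, a lysyl hydroxylase of collagen telopeptides, 8.44-fold.

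Basement membrane genes moved the same way but for a change of laminin. Of 13 tested, 10 rose and 1 fell (median 1.99). The type IV collagen chains COL4A2 (4.31), COL4A1 (3.63), COL4A6 (3.52) and COL4A5 (2.78) all rose. LAMA1, the laminin alpha chain of the early embryo, read 10.29, 10.25 and 10.11 in embryoid bodies and was undetected in progenitors (5.36, 5.72 and 5.42), a fall of at least 17.7-fold. Of 22 integrin and focal adhesion genes 10 rose and 2 fell (median 0.83). The collagen receptor subunit ITGA11 rose 28.8-fold, PARVA, an actin-binding partner of integrin-linked kinase, 21.3-fold, and the fibronectin receptor subunit ITGA5 10.6-fold. ITGA6, a subunit of laminin receptors, fell at least 1.76-fold (−1.83 in the fit), and ITGA9 fell by 1.19. The call of ITGA9 was lost under 5 of 22 alternatives, among them without the first progenitor array (−0.97).

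Proteases of the matrix and their inhibitors rose in 15 of 21 cases and fell in 3 (median 2.43). Beside TFPI2 these were ADAMTS1, a protease that cuts proteoglycans (65.8-fold), PLAT, tissue plasminogen activator (24.9-fold), and PLAUR, the urokinase receptor (21.5-fold). The 3 that fell were MMP9, a gelatinase (at least 5.46-fold), MMP15, a membrane-bound metalloprotease (at least 4.12-fold), and the inhibitor TIMP4 (2.45-fold). In the insulin-like growth factor axis, 11 of 17 genes rose and 2 fell (median 1.52). The binding proteins split: IGFBP5, which PAPPA can cut, rose 76.4-fold to 15.38 ± 0.07, IGFBP3 25.0-fold and IGFBP7 12.3-fold, while IGFBP1 fell at least 1.74-fold and IGFBP2 2.10-fold. The call of IGFBP2 was lost under 5 of 22 alternatives, among them without progenitor array 1 (−0.94) or 3 (−0.91).

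**Figure D3:**
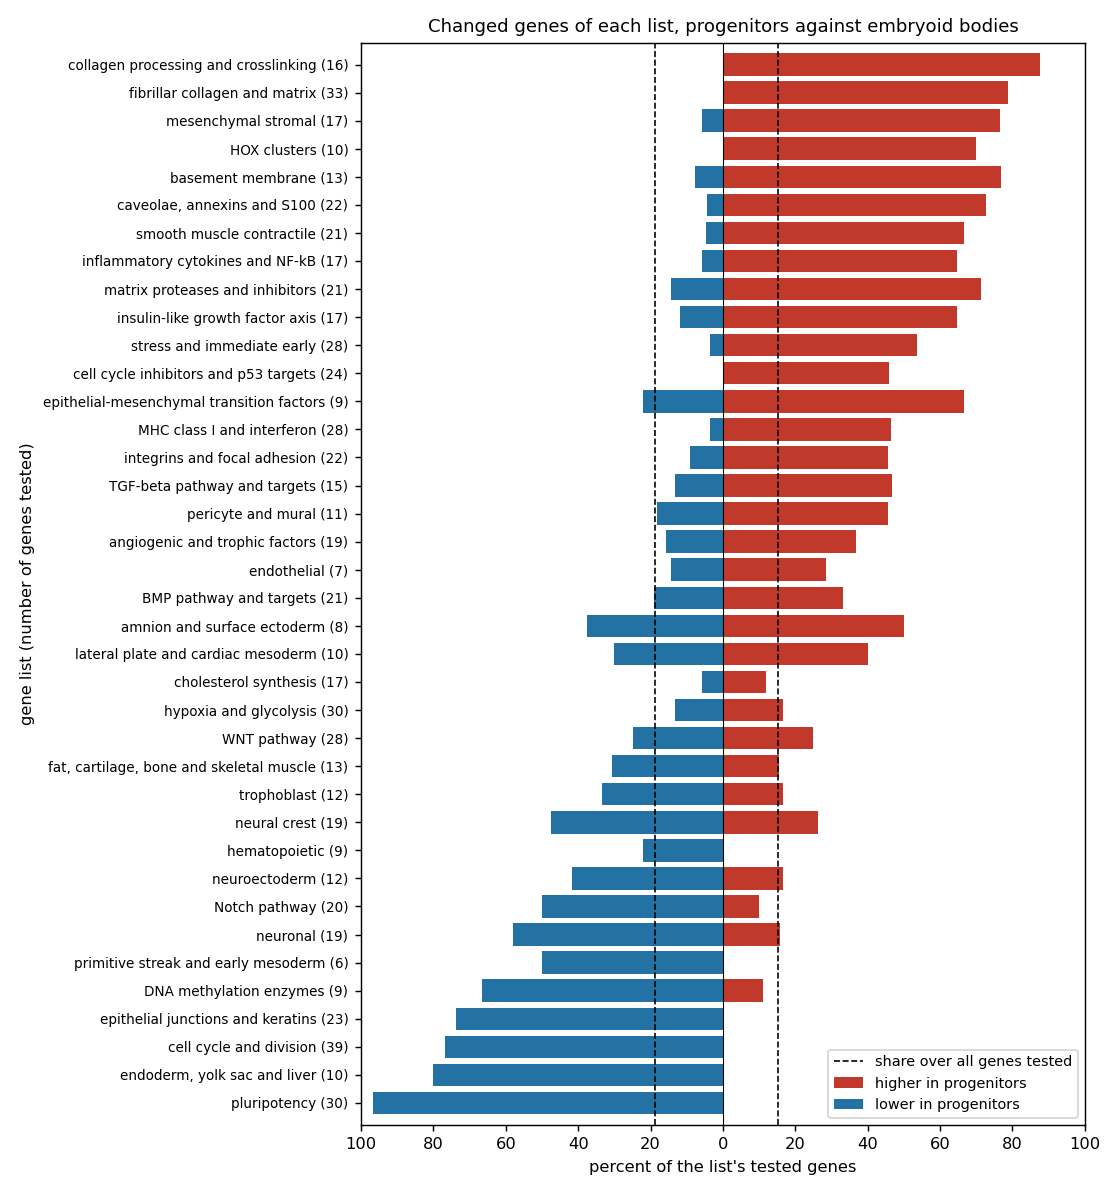
Share of the tested genes of each of 38 gene lists (y axis, number tested in brackets) that were higher in progenitors (red, to the right) or lower (blue, to the left), in percent (x axis). The dashed lines mark the shares over all genes tested, 15.3% higher and 18.9% lower. Lists of matrix genes lie at the top and lists of pluripotency, endoderm, cell cycle and epithelial genes at the bottom.

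Genes of the epithelial state were lower. Of 23 genes of epithelial junctions and keratins 17 fell and none rose (median −3.45, or −2.99 with bounds). CDH1, the cadherin of epithelial cells, read 13.36, 13.32 and 13.40 in embryoid bodies and was undetected in progenitors (5.39, 5.17 and 5.35), a fall of at least 156-fold (adjusted p = 1.4e-10). CDH3, the placental cadherin, fell at least 54.6-fold, MAL2, a protein of apical transport, at least 51.8-fold, and CGN, the tight junction protein cingulin, at least 23.2-fold. EPCAM, an epithelial adhesion protein, fell 42.9-fold and stayed detected at 7.95 ± 0.02. The keratins did not follow: KRT8 differed by 0.83 and KRT19 by 0.55, both with higher means in progenitors and under 2-fold. DSP, the desmosomal plaque protein, differed by −0.57 and was not called.

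The factors that set the choice between the epithelial and mesenchymal state changed in 8 of 9 cases, 6 higher and 2 lower (median 1.59). SNAI2, the repressor Slug, rose 24.9-fold from 7.38 ± 0.14 to 12.02 ± 0.02, ZEB2, a repressor of CDH1, at least 7.16-fold, and the mesenchymal cadherins CDH11 and CDH2 12.6-fold and 4.93-fold. OVOL2, a zinc finger factor that holds the epithelial state, fell at least 8.24-fold, and ESRP1, an epithelial splicing regulator, at least 12.6-fold.

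Pluripotency genes, still high in the BMP4-treated aggregates, were low or undetected in progenitors. Of 30 pluripotency genes 29 fell and none rose (median −4.42, or −3.97 with bounds). POU5F1, the factor OCT4, read 13.21, 13.19 and 13.27 in embryoid bodies, above the 12.85 ± 0.06 of hESC, and 4.91, 5.06 and 4.78 in progenitors, undetected and at least 142-fold lower (adjusted p = 1.15e-10). Its second named probe gave −0.16 and was not called, so the fall rests on 1 of 2 probes. SOX2, a partner of OCT4, fell at least 36.0-fold, and LIN28A, an RNA-binding protein that blocks let-7, 83.1-fold. L1TD1, which binds RNA in pluripotent cells, had the largest fall of all genes, from 14.15 ± 0.05 to an undetected 5.04 ± 0.11, at least 270.0-fold.

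NANOG, the third core factor, fell at least 36.8-fold (11.27 ± 0.06 in embryoid bodies, undetected in progenitors). Its SE of 1.34 was wide because the pooled spread takes in hESC, where it read 11.23, 11.18 and 5.23. PODXL, a sialomucin of stem cells, fell 116-fold, CD24, a surface glycoprotein, 85.7-fold and DNMT3B, the de novo DNA methyltransferase, 85.3-fold. SALL1 was the member not called (−0.84). Among other large falls were those of MYCN (at least 154-fold), of ZSCAN10, a zinc finger factor of stem cells (at least 99.4-fold), of GLDC, which splits glycine (at least 111-fold), and of TRIM71, a let-7 target and RNA-binding ubiquitin ligase (at least 61.3-fold).

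DNA methylation enzymes followed, with 6 of 9 lower and 1 higher (median −1.89). DNMT3L, the partner of de novo methylation, fell at least 6.29-fold, MBD2, which binds methylated DNA, 17.2-fold by 1 of its 2 probes (the other gave −0.10 and was not called), and TET1, which oxidizes methylcytosine, 6.97-fold. DNMT1, which copies methylation after replication, differed by −0.77, under 2-fold. The riser was APOBEC3B, a cytidine deaminase, at least 2.64-fold, with 7.96, 6.27 and 7.94 in progenitors.

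Genes of the lineages that form in embryoid bodies were mostly lower or split. Of 10 endoderm, yolk sac and liver genes 8 fell and none rose (median −2.15). FOXA3, a forkhead factor of gut and liver, fell at least 13.6-fold, APOA2 and APOA1, apolipoproteins of liver and yolk sac, at least 14.5-fold and 20.7-fold, and AFP, alpha-fetoprotein, at least 16.4-fold. Of 6 primitive streak and early mesoderm genes 3 fell, and none was higher. The T-box factors EOMES (6.43 ± 0.06 and 4.88 ± 0.06) and TBXT (6.25 ± 0.26 and 5.18 ± 0.03) were undetected in progenitors and not called (adjusted p = 0.191 and 0.241). Both were high on 2 hESC arrays and low on the third, which widened their error. The 3 that fell were CER1, a secreted Nodal antagonist, KDR and FOXA2, a forkhead factor of endoderm (−2.05, adjusted p = 0.0257). The call of FOXA2 was lost under 10 of 22 alternatives, among them without any 1 embryoid body array and without progenitor 1 or 2, each of which left 2 lower genes. Without the third hESC array 5 of the 6 genes were lower.

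Lateral plate and cardiac mesoderm divided, with 4 of 10 genes higher and 3 lower. TBX3 (16.4-fold), HAND2 (12.9-fold), TCF21 (4.02-fold) and OSR1 (3.86-fold), factors of body wall, limb and stromal mesenchyme, rose. HAND1, a factor of extraembryonic mesoderm, ISL1, a factor of cardiac progenitors, and GATA5, a factor of heart and endoderm, fell. The calls of GATA5, OSR1 and HAND1 were lost under 5, 2 and 1 of 22 alternatives. ISL1 stood at 9.72 ± 0.08 in embryoid bodies and 7.44 ± 0.63 in progenitors. Amnion and surface ectoderm genes split too, with 4 of 8 higher and 3 lower. The risers IGFBP5, IGFBP3, TNC and BAMBI are also genes of stroma or of BMP response, whereas the lower genes were GABRP, ISL1 and the ectodermal factor TFAP2A (4.19-fold). Of 12 trophoblast genes 2 rose (16.7%, near the 15.3% of all genes) and 4 fell (33.3%, against 18.9%). The largest fall there was that of TFAP2C, a factor of trophoblast and of naive stem cells (at least 18.4-fold), and the risers were CDX2 (3.87-fold) and GATA2 (2.51-fold). The calls of CDX2 and GATA2 were lost under 2 and 4 of 22 alternatives.

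HOX genes, which give mesoderm its position along the body axis, rose in 7 of 10 cases with none lower (median 2.91). HOXC6 read 6.24, 6.41 and 6.80 in embryoid bodies and 10.70, 11.75 and 10.76 in progenitors, a 24.1-fold rise. HOXC8 rose at least 12.95-fold, HOXB5 12.1-fold and their co-factor MEIS2 17.8-fold. The members that rose belong to the trunk part of the HOXB and HOXC clusters and to the MEIS family, and 10 of the 37 listed genes could be tested.

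Neural genes were lower more often than higher. Of 12 neuroectoderm genes 5 fell and 2 rose (16.7%, near the 15.3% of all genes). Among the falls were those of SOX3 (at least 9.77-fold), the forebrain factor OTX2 (at least 5.54-fold) and ZIC2 (12.8-fold). The risers were CDH2, given above, and DACH1 (2.96 to 3.28 with 1 array left out). Neural crest genes split, with 9 of 19 lower and 5 higher. Receptors of the crest, EDNRB (27.5-fold), KIT (21.4-fold) and ERBB3 (at least 8.31-fold), fell, and so did SOX8 (9.93-fold). NR2F1, a nuclear receptor of crest and of other mesenchyme, rose 47.3-fold, and MSX2 rose at least 3.98-fold. The other risers were SNAI2 and TWIST1, given above, and DLX1 (0.79 to 1.15 with 1 array left out). The call of DLX1 was lost under 8 of 22 alternatives. Of 19 neuronal genes 11 fell and 3 rose (15.8%, near the 15.3% of all genes). KIF1A, an axonal kinesin, fell at least 137-fold and GAP43, a growth cone protein, 19.1-fold, while STMN2, a microtubule-binding protein of neurons, rose 27.7-fold from 7.89 ± 0.16 to 12.68 ± 0.21. With 1 array left out, the risers SCG2 and SNAP25 gave 2.485 to 2.821 and 0.927 to 1.429. The call of SNAP25 was lost under 6 of 22 alternatives.

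Markers of other cell types that the cultures could hold were few among the genes tested. Among endothelial genes 7 of 26 could be tested, 2 rose and 1 fell. TEK, the angiopoietin receptor, read 7.82, 7.89 and 7.91 in embryoid bodies and 10.55, 11.40 and 10.57 in progenitors (2.96), and NOS3, endothelial nitric oxide synthase, rose 3.08-fold. KDR, the main VEGF receptor, fell from 8.93 ± 0.07 to 7.45 ± 0.90 with 8.46 on the second progenitor array, and CD34 stood at 6.28 ± 0.09 and 6.01 ± 0.16 and was not called. The calls of NOS3 and KDR were lost under 3 and 4 of 22 alternatives, for both among them without background correction. The mean level of the list was 7.11 to 7.21 per gene in embryoid bodies and 7.10 to 7.66 in progenitors, and 2 genes were lower without the third embryoid body array or the second progenitor array. PECAM1, CDH5 and VWF, which define endothelium, were not analysed here.

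Of 9 hematopoietic genes none rose and 2 fell, HBA2 and CORO1A, both at low levels (7.64 and 7.66 in embryoid bodies). The share of lower genes, 22.2%, is near the 18.9% of all genes. Both calls were lost without background correction and in the authors' deposited values. PTPRC, the leukocyte antigen CD45, was detected on no progenitor array (5.70 ± 0.28). The list's mean level was 7.11 to 7.23 in embryoid bodies and 6.42 to 6.69 in progenitors, and 4 genes were lower without the second progenitor array. In bulk RNA, fewer cells of a type and less RNA per cell cannot be told apart.

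Genes of other mesodermal fates gave a mixed picture with extremes on both sides. Of 13 genes of fat, cartilage, bone and skeletal muscle 2 rose (15.4%, near the 15.3% of all genes) and 4 fell (30.8%, against 18.9%). PPARG, the nuclear receptor that drives fat cell formation and also acts in vessel wall cells, read 5.80, 6.03 and 5.90 in embryoid bodies and 12.47, 12.70 and 12.58 in progenitors (6.67, SE 0.15, adjusted p = 1.58e-09). The C/EBP partners differed among themselves: CEBPD rose 43.9-fold and CEBPB 3.09-fold, while CEBPA, needed late in fat cell formation, fell 5.86-fold. RUNX2, the factor of bone, and SOX9, the factor of cartilage, differed by 0.49 and 0.58 and were not called. The sarcomeric actins fell furthest, ACTA1 at least 178-fold from 13.54 ± 0.05 and ACTC1 at least 41.0-fold from 11.43 ± 0.00, levels that both also had in hESC (13.55 ± 0.60 and 11.94 ± 0.58).

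Signalling pathways were followed from ligand to target. For BMP, 7 of 21 genes rose (33.3%, against 15.3% of all genes) and 4 fell (19%, near the 18.9% of all), with a median of 0.55. The receptor BMPR2 rose 15.6-fold, and the antagonists GREM1 and FSTL3, which trap BMP and activin ligands, 36.2-fold and 10.5-fold. BMP7, a ligand, fell at least 6.43-fold. FST, the antagonist follistatin, fell too (−1.92), unlike GREM1 and FSTL3, and its call was lost under 3 of 22 alternatives. The direct target ID1 was lower, from 12.94, 13.03 and 13.04 in embryoid bodies to 10.74, 11.16 and 10.87, and ID2 fell 3.22-fold, while ID3 differed by −0.51 and was not called. BAMBI, a decoy receptor, rose 4.10-fold. Fewer transcripts of ID1 stand beside the absence of added BMP4 from the progenitor medium, and their link was not tested.

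For TGF-beta, 7 of 15 genes rose and 2 fell (median 0.86). The receptor TGFBR2 rose 11.3-fold, the transducer SMAD3 11.1-fold and LTBP3, which stores the ligand in matrix, at least 5.82-fold. SMAD2 and SMAD4 differed by −0.39 and −0.40 and were not called. Among targets TGFBI rose, as given above, and SMAD7 differed by 0.55 and was not called. The 2 lower genes, SKIL and TGIF2, are repressors of SMAD transcription (3.05-fold and 3.30-fold).

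For WNT, 7 of 28 genes rose and 7 fell (median −0.10). WNT5A, a ligand of the non-canonical branch, rose 34.1-fold from 6.28 ± 0.01 to 11.38 ± 0.08, and its receptor FZD2 12.5-fold. The antagonists differed, with DKK1 and DKK3 (6.87-fold) higher and SFRP2, a secreted decoy, lower at least 27.6-fold. AXIN2, a feedback target of beta-catenin, fell 13.3-fold from 11.88 ± 0.04 to 8.15 ± 0.39, and the receptors FZD7 and FZD5 fell 3.63-fold and at least 3.58-fold. The fall of FZD7 rests on 1 of 2 probes, the other giving −0.18.

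For Notch, 10 of 20 genes fell and 2 rose (median −1.02). HEY2, a repressor induced by Notch in vessels and heart, read 11.91, 11.85 and 11.83 in embryoid bodies and 4.82, 4.81 and 4.80 in progenitors, undetected and at least 55.4-fold lower. The ligands DLL1 (10.4-fold) and DLL3 (4.40-fold) and the repressor HES6 (19.8-fold) fell. Among receptors NOTCH2 rose 4.38-fold, whereas NOTCH1 (−0.36) was not called. The other riser was MAML2 (1.15 to 1.43 with 1 array left out), whose call was lost under 4 of 22 alternatives.

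Secreted angiogenic and trophic factors rose in 7 of 19 cases and fell in 3 (median 0.80). THBS1, an inhibitor of angiogenesis and activator of TGF-beta, rose 31.4-fold, PDGFC, a PDGF ligand, 14.3-fold, and VEGFC, the lymphatic growth factor, 7.73-fold. VEGFA differed by 0.98 (9.19 ± 0.27 against 8.21 ± 0.08), just under 2-fold, and rose by its other probe (1.68). CXCL12, the chemokine that retains CXCR4-bearing cells, fell 13.6-fold, EDN1, endothelin, at least 3.46-fold and FGF2 4.13-fold.

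Inflammatory genes were higher in 11 of 17 cases and lower in 1 (median 1.81, or 1.42 with bounds). CXCL8, the neutrophil chemokine interleukin-8, read 6.91, 6.28 and 6.35 in embryoid bodies and 12.24, 11.47 and 12.21 in progenitors (44.1-fold). IL1A, a cytokine released by stressed cells, rose 27.5-fold, PTGES, a prostaglandin E synthase, 5.65-fold, and TNFAIP3, a feedback inhibitor of NF-kB, 13.1-fold. CCL2, a monocyte chemokine often made by stroma, differed by −0.42 and was not called. CXCL5, the lower gene, stood at 8.88 ± 0.06 and 7.85 ± 0.21. Its call was lost under 7 of 22 alternatives, among them without embryoid body array 2 or progenitor array 1 (at the least −0.905).

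NF-kB sites were found for 8 of the 13 genes of this list with a promoter window (61.5%), against 11.8% of all genes and 9.96% of all windows. They were IL6, CXCL6, TNFAIP3, NFKBIA and NFKB1, which rose, CXCL5, which fell, and IL32 and NFKB2, which were not called. The list was drawn up around NF-kB, so the excess of sites describes the choice of genes and not their changes. The windows of the largest 2 risers with a site follow, with sites in capitals.
TNFAIP3, chr6:137867009-137867258, + strand: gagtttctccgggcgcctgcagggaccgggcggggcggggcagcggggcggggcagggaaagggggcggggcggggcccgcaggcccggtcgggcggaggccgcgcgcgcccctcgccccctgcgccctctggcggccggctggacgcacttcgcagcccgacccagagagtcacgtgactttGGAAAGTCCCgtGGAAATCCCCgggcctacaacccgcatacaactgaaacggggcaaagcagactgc
IL6, chr7:22726950-22727199, + strand: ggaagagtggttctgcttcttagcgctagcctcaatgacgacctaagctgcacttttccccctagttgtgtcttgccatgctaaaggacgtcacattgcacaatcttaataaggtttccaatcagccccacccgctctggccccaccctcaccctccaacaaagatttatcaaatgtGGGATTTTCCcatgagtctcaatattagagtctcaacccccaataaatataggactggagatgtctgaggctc
The gene TNFAIP3 has 2 sites side by side, the nearer one 45 bases before the start, and IL6 (9.54, 8.21 and 9.50 in progenitors, 6.65 ± 0.17 in embryoid bodies) has 1 site 63 bases before it.

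Antigen presentation and interferon genes rose in 13 of 28 cases and fell in 1 (median 1.04). IFI16, a DNA sensor, rose 15.2-fold, IRF1, an interferon-induced factor, 9.98-fold, and TAPBP and PSMB9, which load and cut peptides for MHC class I, 5.13-fold and 5.11-fold. The antiviral genes MX1 (−0.65) and ISG15 (0.45) were not called, and IFITM1 fell 2.85-fold. Caveolae, annexin and S100 genes rose in 16 of 22 cases and fell in 1 (median 1.86), among them S100A6 (20.7-fold), the caveolar ATPase EHD2 (10.2-fold), ANXA1 (8.72-fold) and the caveolar coat protein CAV1 (8.36-fold), while ANXA3 fell 4.20-fold. Without the third embryoid body array 2 genes of that list were lower.

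Proliferation genes were lower. Of 39 cell cycle and division genes 30 fell and none rose (median −1.72). The mean level of the list was 10.77 to 10.78 on the embryoid body arrays and 9.55, 8.46 and 9.55 on the progenitor arrays, so that all 3 progenitors were lower and the second lowest by more than 1 unit. CDC25A, the phosphatase that starts S phase, fell 6.56-fold, CDT1 and MCM5, which license replication origins, 6.41-fold and 6.30-fold, and TTK, a spindle checkpoint kinase, 5.76-fold. Without the second progenitor array 26 fell and 1, TYMS, rose. MKI67, the protein used to stain cycling cells, was undetected on all progenitor arrays (5.55 ± 0.23 against 6.49 ± 0.24, −0.93), under 2-fold.

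**Figure D4:**
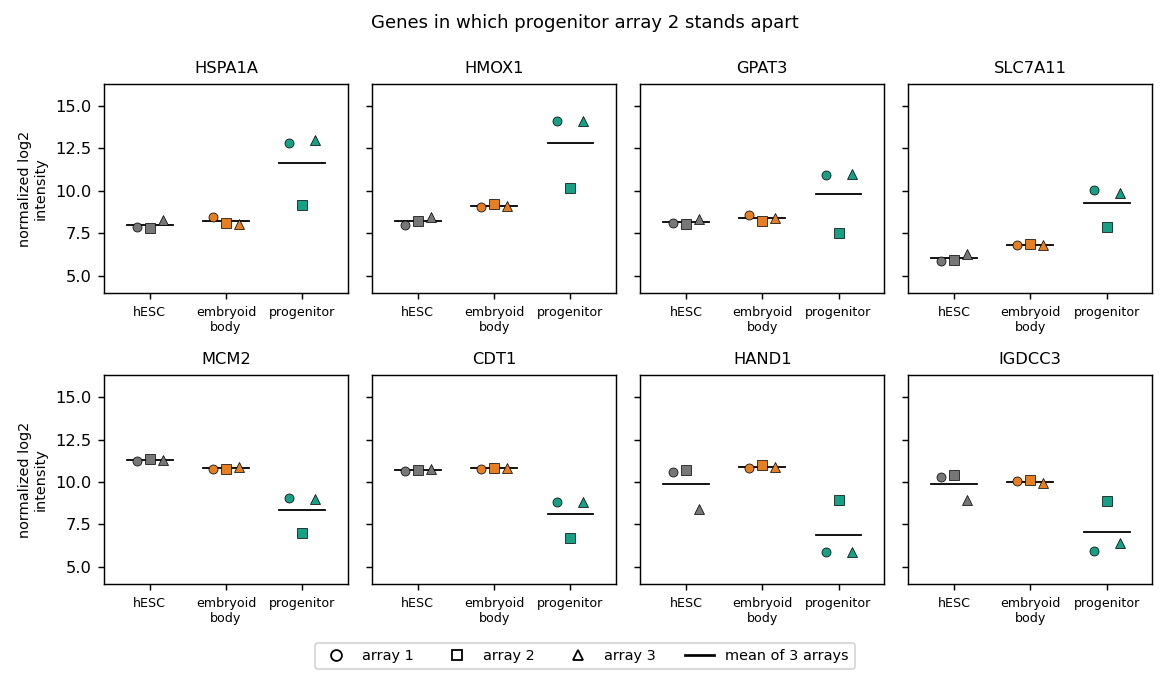
Normalized log2 intensity (y axis) of 8 genes on each array of hESC, embryoid bodies and progenitors, with circles, squares and triangles for arrays 1, 2 and 3 and a bar for the mean of 3 arrays. In each panel the square of progenitor 2 lies apart from progenitors 1 and 3, below them for HSPA1A, HMOX1, GPAT3, SLC7A11, MCM2 and CDT1 and above them for HAND1 and IGDCC3.

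Promoters of this list are shown because its members fell together and because 2 elements, the CCAAT box and the CHR (TTTGAA), are known from genes of the cell division phase. Among 30 genes with a window, CCAAT or its reverse complement was found for 24 (80%, against 37% of all genes) and TTTGAA or its reverse complement for 10 (33.3%, against 16.1%). Both occurred for 9 genes (30%), against 5.79% of all genes and 4.69% of windows. Since division genes are known for these elements, the excess describes the choice of genes and not their falls. The windows of the 2 largest falls with both elements follow, with the elements in capitals. That of CDC25C is 1 of 4 windows of the gene.
CDC25C, chr5:138331805-138332054, - strand: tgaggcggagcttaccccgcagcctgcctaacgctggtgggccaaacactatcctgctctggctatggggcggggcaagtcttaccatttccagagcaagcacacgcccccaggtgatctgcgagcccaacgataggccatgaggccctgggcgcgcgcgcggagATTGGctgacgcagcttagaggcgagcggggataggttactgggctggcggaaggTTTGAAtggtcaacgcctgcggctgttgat
CENPA, chr2:26785806-26786055, + strand: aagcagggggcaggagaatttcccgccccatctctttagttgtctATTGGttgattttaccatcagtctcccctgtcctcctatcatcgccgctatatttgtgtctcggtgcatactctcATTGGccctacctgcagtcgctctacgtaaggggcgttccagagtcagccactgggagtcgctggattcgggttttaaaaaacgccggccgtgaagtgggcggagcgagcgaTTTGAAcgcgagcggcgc
CDC25C, the phosphatase that starts mitosis, read 9.79, 9.86 and 9.69 in embryoid bodies and 7.86, 6.77 and 7.78 in progenitors. CENPA, the histone of centromeres, read 10.41, 10.46 and 10.37 against 8.79, 7.34 and 8.80. In both genes the second progenitor array was the lowest. The CHR ends 24 bases before the start in CDC25C and 12 bases in CENPA.

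Inhibitors of the cell cycle and p53 targets rose in 11 of 24 cases with none lower (median 0.92, or 0.80 with bounds). CDKN1A, the inhibitor p21, read 10.90, 10.94 and 10.80 in embryoid bodies and 15.43, 15.40 and 15.50 in progenitors (4.56, SE 0.11, adjusted p = 2.07e-09). All 3 progenitor arrays carried it alike, the second included. CDKN2A, the locus of p16 and ARF, was undetected in embryoid bodies (5.70, 5.81 and 5.41) and read 9.15, 8.85 and 9.39 in progenitors, at least 8.81-fold higher. GDF15, a stress-induced cytokine, rose 10.1-fold and PLK2, a kinase induced by p53, at least 6.66-fold. MDM2, the p53 ubiquitin ligase (0.72), FAS, a death receptor (0.97), and CDKN1B, the inhibitor p27 (0.10), were not called.

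Stress and immediate early genes rose in 15 of 28 cases and fell in 1 (median 1.21, or 1.07 with bounds). HMOX1, heme oxygenase of the oxidative stress response, read 9.05, 9.21 and 9.13 in embryoid bodies and 14.09, 10.16 and 14.13 in progenitors (3.67, SE 0.89, adjusted p = 0.00509). HSPA1A, an inducible heat shock protein, read 8.47, 8.13 and 8.05 against 12.84, 9.17 and 13.004 (3.45, SE 0.86, adjusted p = 0.00557). For both, the second progenitor array lay far closer to the embryoid bodies than to the other progenitors. DUSP1 and IER3, immediate early genes, rose 13.6-fold and 11.9-fold with like values on all 3 progenitor arrays for IER3 (13.01, 13.08 and 13.09). DDIT3 (0.79) and ATF4 (0.04), of the unfolded protein and amino acid responses, were not called. KLF4, the lower member and also a pluripotency factor, fell 3.21-fold.

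Most members of the metabolic lists were not called, which holds for all genes too, of which 34.2% changed. Of 30 hypoxia and glycolysis genes 5 rose and 4 fell (median 0.39), and 9 rose under median scaling. These shares, 16.7% higher and 13.3% lower, are near the 15.3% and 18.9% of all genes. The factors EPAS1 (8.76-fold) and HIF1A (4.40-fold) and the sensor EGLN1 (5.56-fold) rose. The 4 that fell were the glucose transporters SLC2A3 (3.06-fold) and SLC2A1, the sensor EGLN3 and the enolase ENO2. With 1 array left out, EGLN3 gave −1.52 to −1.34, ENO2 −1.40 to −1.30 and SLC2A1 −1.32 to −0.77. The call of SLC2A1 was lost under 5 of 22 alternatives and that of EGLN3 under 4. GAPDH (0.77), LDHA (0.61) and PGK1 (−0.22) were not called. Of 17 cholesterol synthesis genes 2 rose (11.8%) and 1 fell (5.88%), with a median of 0.30. The feedback protein INSIG1 rose 2.69-fold. The calls of CYP51A1 (1.07) and HMGCS1 (−1.02) were each lost under 7 of 22 alternatives. Among these, CYP51A1 lost its call without the second embryoid body array or the third progenitor array (at the least 0.975). HMGCS1 lost its call without progenitor array 2 or 3 (at the least −0.984).

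The second progenitor array stood apart from the other 2 on many genes. Between progenitors 1 and 3 only 29 genes were at least 2-fold apart, against 657 and 600 between progenitor 2 and the others, and 6 to 43 between embryoid body arrays. Among the hESC arrays, which enter the pooled spread, array 3 stood apart likewise. It differed on 446 and 425 genes from arrays 1 and 2, which differed from each other on 2. Of the 590 genes that were 2-fold from the mean of progenitors 1 and 3, progenitor 2 was higher for 301 and lower for 289. Examples of genes low there, chosen because they stood apart, were GPAT3 (10.93, 7.52 and 10.97), a triglyceride synthesis enzyme, SLC7A11 (10.08, 7.86 and 9.85), the cystine importer, ZFAND2A (12.21, 9.92 and 12.20), a stress-inducible zinc finger protein, and DNAJB1 (12.73, 10.34 and 12.73), a heat shock co-chaperone. The stress and immediate early list as a whole had a median difference of −0.47 between progenitor 2 and the mean of the others. The rise of DNAJB1 (1.65, adjusted p = 0.0225) was lost without any 1 of the embryoid body arrays, without progenitor 1 (1.25) or 3, and with the 6 arrays alone, and was 2.45 without progenitor 2.

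For the cell cycle list that median was −1.08, and its member MCM2, part of the replicative helicase, read 9.08, 6.98 and 9.02. Genes of lateral plate mesoderm (median 1.03), HOX genes (0.75) and matrix genes (0.57) were higher on it. HAND1 read 5.87, 8.92 and 5.85 and APCDD1, a WNT inhibitor, 10.37, 12.89 and 10.48. Progenitor 2 lay nearer to the embryoid bodies than the mean of the others for 40.4% of changed genes. These genes were called with progenitor 2 in the fit, and a call is harder to reach where it lies towards the embryoid bodies. The share therefore cannot tell whether progenitor 2 was closer to the embryoid bodies. Leaving out progenitor 2 gave 3999 changed genes, 1797 higher and 2202 lower.

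The naming of probes limits what could be counted. Named probes were those detected on at least 4 of the 9 arrays, so that a gene detected on the 3 progenitor arrays alone has no named probe here. Of the 932 probes detected on every progenitor array and no embryoid body array 320 were named, and of the 1409 in the reverse pattern 1126. The excess of lower over higher calls among named genes (2261 against 1838) stands beside this difference, whose part in it was not tested. Of 2927 genes with more than 1 probe, 1007 were called by the brightest probe. For 666 of these every other probe gave the same call, for 338 some other probe was not called, and for 3, BTBD7, CHD3 and ITGB1BP1, another probe changed the opposite way. Among the genes named with more than 1 probe, the call of 6 was not shared by another probe (POU5F1, MBD2, FZD7, TBX18, KLF4 and CXCL5), and 4 not called had another probe that was (VEGFA, SMTN, CNN2 and LDHA). For 12 every probe gave the same call at sizes more than 4-fold apart, namely TGM2, VCAM1, MYLK, MEIS2, PLOD2, GPM6B, MYCN, DNMT3B, EPCAM, EDNRB, ERBB3 and OTX2.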

How the data were processed

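Total RNA of the 3 groups was hybridised to Illumina BeadChips, which read each transcript with bead-bound probes. The deposited table gives, per probe and array, an intensity on a linear scale, not background-corrected, and a detection p-value by the authors, per the file headers. A deposited table of log2 values made by the authors holds the 20127 probes detected on at least 4 arrays and was used as an alternative. BeadStudio is named in the submitters' processing notes, with no version. Precision is limited by the 3 arrays per group.

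Probes were named through the platform annotation: 15592 had 1 gene symbol, 4 had several, 4531 of the authors' probes had none, and 15585 identifiers were found in RefSeq. The neqc function of limma 3.58.1 (R 4.3.3) corrected the background by normexp, with the negative controls taken from the deposited detection values, and gave quantile-normalized log2 levels after an offset of 16. Named probes with a detection p under 0.05 on at least 3 of 9 arrays were kept, and a gene was represented by the probe whose mean over the 9 arrays was highest. All 15592 named probes passed this filter, since naming covered only probes detected on at least 4 arrays. All 9 arrays were fitted with lmFit and eBayes, and progenitors minus embryoid bodies was tested two-sided with Benjamini-Hochberg adjustment over 11991 genes. The procedure was tested on simulated data. Promoter windows came from RefSeq (GRCh38.p14).

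The members and the 38 gene lists (967 entries, 644 of them tested) were chosen with earlier results of these data known. Genes named are drawn from the 15 largest changes in each direction without overlap of the groups. The naming rule adds up to 4 changed members per direction of each list, the markers and members measured against their list's direction. Not every gene of that rule is given above. Some were chosen after their values were seen, among them genes on which progenitor 2 stood apart and the members of the cell-type marker sets. Alternatives covered background, scaling, filters, probe choice, the arrays fitted, each array left out and a replicate block.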

Additional observations from a re-analysis of the deposited data

Results flagged for a closer look

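Outside the named genes, calls were also made among the probes that carry no gene name here and enter no count by gene. Of the 4535 unnamed probes detected on at least 4 arrays, the condition that named probes also met, 323 (7.12%) were higher in progenitors than in embryoid bodies by the same limma call and 453 (9.99%) were lower, against 15.2% and 18.1% of named probes. The embryoid bodies are the group compared against in these counts, whereas the labels give the word control to the hESC arrays. A further 1556 unnamed probes were detected on exactly 3 arrays and are left out, since this detection count admits a probe through the 3 arrays of 1 group where it is high. What these probes measure was not analysed here.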

How the results depend on the processing

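The 4099 changed genes became 2716 in the authors' deposited values (1370 lower, 1346 higher) and 2535 when limma's treat tested against a 2-fold change itself (1138 higher and 1397 lower). Other alternatives gave counts within 1.5 times of the 4099: 2826 without background correction, 3571 with an offset of 50, and 4018 to 4104 with other filters, the mean over probes or the 6 arrays alone. Testing every named probe called 5191 of 15592 probes. The alternative without a detection filter gave the same 4099 by construction, since that filter removed no named probe. Under median scaling 2053 rose and 2024 fell, 50.4% higher in place of 44.8%. Leaving out 1 array in turn gave 3999 to 4182 changed genes, 1797 to 1878 higher and 2202 to 2314 lower, and leaving out progenitor 2 and hESC 3 together, an alternative chosen after seeing the data as were all counts of list members under alternatives, gave 4022. With the closest arrays averaged, which left 5 columns and 2 residual degrees of freedom, 3722 genes changed and 4016 of the 4099 kept a 2-fold change. The labels number the arrays of each group, and a replicate block on those numbers gave 4102. Arrays of 1 number did not deviate together (correlations −0.08, 0.04 and −0.12 for numbers 1, 2 and 3), so the numbers were not taken as pairs, and no array correlated clearly best with its own number. Of 283 genes, those of the naming rule and the others named with a value, 236 were called, 183 of them under every alternative and 220 whichever 1 array was left out. None of the called genes changed its direction under these alternatives, and among the others SRF did (−0.096, not called), at 0.10 under median scaling and 0.031 without progenitor 2, with or without hESC 3 (−0.169 to 0.031 over the arrays left out). The values of genes undetected in 1 group are limited by background, which sets their bounds.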

Other observations

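Some of the largest changes fell outside the gene groups described above. MAP1A, a microtubule-associated protein best known from neurons, was undetected on all embryoid body arrays and read 11.49, 10.88 and 11.50 in progenitors, at least 39.4-fold higher. RAB27B, a small GTPase of vesicle and exosome release, rose from 6.03 ± 0.19 to 11.92 ± 0.23 (5.89, adjusted p = 2.33e-09). TM4SF1, a membrane protein of endothelial and mesenchymal cells, rose 57.8-fold and PRSS23, a secreted serine protease, 57.8-fold. IL6ST, the shared signalling receptor gp130 of the interleukin-6 family, rose 39.0-fold to 14.26 ± 0.17. CRISPLD2, a secreted protein of mesenchyme, rose 43.5-fold. Each of these was called under every alternative run.

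Among the falls, GPC4, a heparan sulfate proteoglycan of the cell surface, read 12.30, 12.35 and 12.29 in embryoid bodies and 4.76, 5.26 and 4.71 in progenitors, at least 75.7-fold lower. PRODH, which starts the breakdown of proline, fell at least 59.5-fold from 11.97 ± 0.05. GPM6B, a membrane protein of neurons and glia, fell 130-fold by the brightest of 3 probes, which gave −7.02 to −1.58, and CFAP95, a cilium-associated protein, at least 141-fold. SPP1, the secreted matrix protein osteopontin, fell 12.9-fold and read 9.58, 7.72 and 9.70 in progenitors, lowest on the second array. CA2, a carbonic anhydrase, was also set apart on that array (5.10, 7.80 and 5.43, against 10.60 ± 0.07 in embryoid bodies).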
